A study of Mus musculus with 6 samples.

Results

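The genes described here are 38 components of mitosis, the kinases, cyclins, kinesins, kinetochore, checkpoint and cytokinesis proteins that carry a cell through division, with the proliferation marker Mki67. They were taken by gene symbol from the 18159 genes of the table, and all 38 were present and expressed enough to be tested. Expression was measured by RNA sequencing in intestinal epithelial cells from mice of 12 days of age. The groups were 3 libraries whose titles name Git2-knockout mice and 3 libraries of wild-type mice, with no treatment named for either group. Each sample's genotype entry reads Git2 knockdown where its title reads knockout. The design text describes enteroids, which are epithelial organoids grown from crypts, where the titles name isolated cells. The labels name no strain or allele and do not say whether replicates came from separate animals, so the p-values describe sample-to-sample spread that could be technical.

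Git2 was at 17.3, 15.5 and 16.8 counts per 1000000 reads (CPM) in the libraries labelled Git2-knockout, against 22.2, 23.7 and 22.7 CPM in wild-type, a fall of 0.47 on the log2 scale (SE 0.07, edgeR, Benjamini-Hochberg adjusted p = 4.44e-05). The transcript remained in all of them, and directions are given as those of the labelled libraries. These libraries held 16284414 to 16837158 estimated reads, fewer than the 18753649 to 19106581 of each wild-type library. Replicate 1 labelled Git2-knockout stood farther from its own group than any other pair of replicates did, with a chi-square per degree of freedom of 6.79 and 5.05 against replicates 2 and 3, where the remaining pairs within a group gave 1.59 to 2.77. The epithelial markers Epcam and Krt8 were abundant, at 2821 ± 31.02 and 2367 ± 10.9 transcripts per 1000000 (TPM) in libraries labelled Git2-knockout, against 2510 ± 27.9 and 2606 ± 97.2 TPM in wild-type (SD, n = 3 each).

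Entry into mitosis is driven by Cdk1 bound to cyclins A and B. Aurora and Polo kinases then build the spindle, kinetochores tie chromosomes to its microtubules, and the spindle checkpoint delays anaphase until every chromosome is attached. In the intestine most of these genes are more active in dividing crypt cells than in the differentiated cells of the villus. Many of them share promoter elements, the cell cycle genes homology region (CHR), which binds the MuvB complex through its subunit Lin54, and CCAAT boxes, which bind NF-Y. Through these elements the genes are repressed in resting cells and activated together with B-Myb and FoxM1 in G2 and mitosis.

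The shared elements were visible in the sequences of the genes. Of the 38 genes, 31 had promoter windows in the RefSeq table of the GRCm38.p6 build, 34 windows in all, each running from 250 bases before the transcription start to 50 after it. A CHR hexamer, TTTGAA or TTTAAA on either strand, lay in 85.3% of these windows, against 19.9% of the 13759 windows of tested genes and 27.6% of all 32851 windows. The 5 letters CCAAT on either strand lay in 79.4% of the mitotic windows, against 37.9% of those of tested genes. A CHR hexamer within 50 bases of the start was held by 73.5% of the mitotic windows and by 5.17% of those of tested genes. The hexamer was present in windows of 7 of the 8 matched genes that rose, 6 of the 6 that fell and 13 of the 17 that did not pass the test. Both directions of change described below were thus found among genes with these letters, and a match is a description of the sequence and not a site of binding.

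The 120 bases before the start are shown for 3 genes that rose (Ect2, Kif11 and Ccnb1) and 2 that fell (Bub3 and Ube2c), picked because each holds a CHR hexamer and a CCAAT box in this stretch. They are written 5′ to 3′ on the strand of the gene, from RefSeq, GRCm38.p6, with both kinds of element in capitals in whichever orientation they occur.
Ect2, chr3:27153879-27153998 (- strand): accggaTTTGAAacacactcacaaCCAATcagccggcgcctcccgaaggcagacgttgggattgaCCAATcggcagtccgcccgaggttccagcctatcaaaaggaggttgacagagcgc
Kif11, chr19:37376262-37376381 (+ strand): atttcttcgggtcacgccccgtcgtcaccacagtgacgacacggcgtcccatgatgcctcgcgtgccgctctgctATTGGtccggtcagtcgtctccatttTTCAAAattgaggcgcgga
Ccnb1, chr13:100786487-100786606 (- strand): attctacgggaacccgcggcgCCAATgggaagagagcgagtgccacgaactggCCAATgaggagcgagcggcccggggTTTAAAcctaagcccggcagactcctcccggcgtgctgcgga
Bub3, chr7:131560250-131560369 (+ strand): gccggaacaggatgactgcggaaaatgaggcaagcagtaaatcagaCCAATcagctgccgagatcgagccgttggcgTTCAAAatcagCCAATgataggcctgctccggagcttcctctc
Ube2c, chr2:164769809-164769928 (+ strand): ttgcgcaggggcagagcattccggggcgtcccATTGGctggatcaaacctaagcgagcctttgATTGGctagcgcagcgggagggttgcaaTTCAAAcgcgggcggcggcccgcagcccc
The hexamer began 19 bases before the start in Kif11, 42 in Ccnb1, 43 in Bub3 and 29 in Ube2c. In Ect2 it began 114 bases before the start, and a further hexamer lay after the start, outside the stretch shown.

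**Figure D1:**
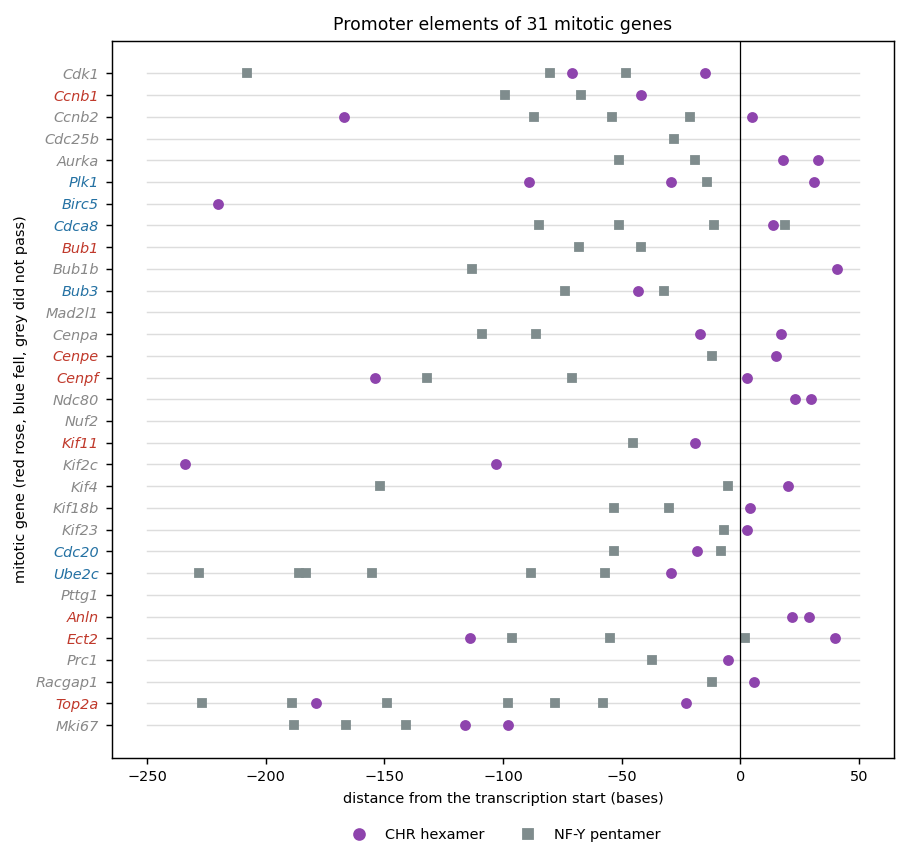
Positions of CHR hexamers (purple circles) and NF-Y pentamers, the CCAAT boxes (grey squares), in the promoter windows of 31 mitotic genes, by distance from the transcription start in bases, with 1 window per gene. Gene names are red for genes that rose, blue for genes that fell and grey for genes that did not pass the test. Circles gather within 50 bases of the start in genes of all 3 colours.

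The mitotic genes did not move as 1 block. Of the 38 genes, 9 rose and 7 fell in the libraries labelled Git2-knockout, and 22 did not pass the test (quasi-likelihood test of edgeR, Benjamini-Hochberg adjustment across the 13558 genes that were tested). Across all genes tested 57% were called, 29.6% upward and 27.4% downward, so the 42.1% called among the mitotic genes lay below the background. The genes that rose were Ccna2, Ccnb1, Bub1, Cenpe, Cenpf, Kif11, Anln, Ect2 and Top2a. They serve the onset of mitosis, the checkpoint, kinetochores, spindle pole separation, the untangling of sister chromatids and cytokinesis. The genes that fell were Plk1, Incenp, Birc5, Cdca8, Bub3, Cdc20 and Ube2c, of the Polo kinase, chromosomal passenger complex, checkpoint and anaphase machinery. All changes were under 2-fold, from -0.42 for Bub3 to 0.65 for Ect2 on the log2 scale, and the median of the 38 was 0.04, beside 0.02 for all genes tested. In 10 of the genes every library labelled Git2-knockout lay above every wild-type one, and in 6 every such library lay below, where groups did not overlap in 62.9% of all tested genes, 32.3% above and 30.6% below.

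These counts depended on the scale and on trends with transcript length and base composition. On the log2(TPM + 1) scale, where the median of all genes lay at 0.14, 19 of the mitotic genes rose and 1 fell (median 0.20), against 42.4% of all genes rising and 13.9% falling (56.3% called). Trends with transcript length and GC content were also removed. They were fitted across genes in each library, on the deviation of each gene from its mean over all libraries, length before GC content. After removal of both trends 4 of the mitotic genes rose and 4 fell, against 21.5% of all genes in each direction (42.9% called), and Ect2, Ccnb1, Incenp and Bub3 were the 4 of the 16 original calls that remained in the same direction. With the length trend alone removed 9 rose and 4 fell, against 27.1% and 26% of all genes (53.1% called). With the GC trend alone removed 2 rose and 5 fell, against 22.8% and 22.3% (45.2% called), and the calls that remained in the same direction were Birc5, Cdca8, Bub3 and Ect2. Single libraries moved the counts both ways. Without replicate 1 labelled Git2-knockout 11 rose and 9 fell, against 29.5% and 30.8% of all genes (60.4% called). Without replicate 2 labelled Git2-knockout 7 rose and 5 fell, against 25.7% and 25.5% (51.2% called), and without wild-type replicate 2 also 7 rose and 5 fell, against 25.7% and 23.5% (49.2% called). With the replicate number as a block 8 rose and 6 fell, against 28.5% and 26.4% (54.9% called).

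**Figure D2:**
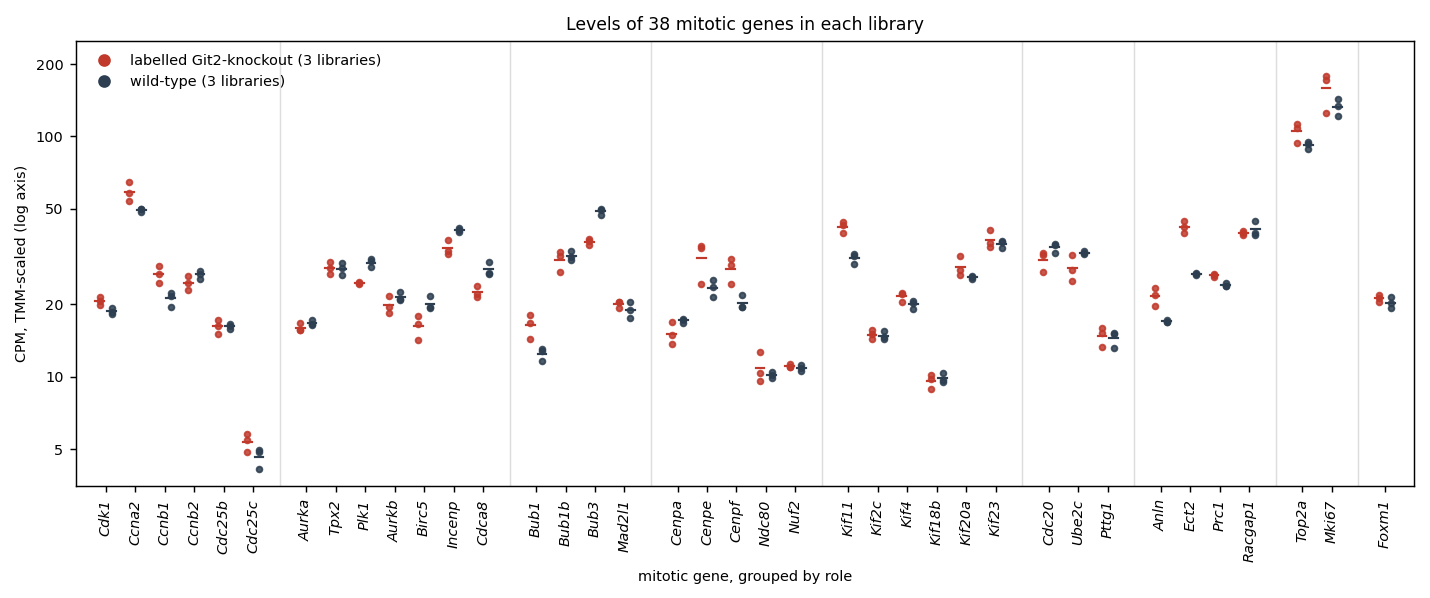
CPM of the 38 mitotic genes on a log axis, grouped by role, with a point per library and a bar at the mean of 3 libraries, those labelled Git2-knockout in red and wild-type in dark blue. Ect2 and Kif11 show red points above all dark ones, and Bub3 and Plk1 show red points below them.

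On a scale corrected for transcript length, Ube2c was the most abundant of the 38 genes and Cenpf the least. Ube2c, the ubiquitin-conjugating enzyme of the anaphase-promoting complex, averaged 72.6 ± 7.53 TPM in libraries labelled Git2-knockout and 75.2 ± 1.72 TPM in wild-type (SD, n = 3 each). Cenpf averaged 6.05 ± 0.915 TPM in libraries labelled Git2-knockout and 3.90 ± 0.244 TPM in wild-type. The genes next to Ube2c in libraries labelled Git2-knockout, Top2a (40.1 to 50.2 TPM), Pttg1 (38.4 to 45.1), Bub3 (39.8 to 42.9), Ccna2 (37.4 to 42.8) and Cdc20 (36.3 to 43.0), had overlapping ranges and no clear order. In wild-type the second place belonged to Bub3, at 46.9 to 50.4 TPM, above the ranges of all the other genes except Ube2c. The summed level of the 38 genes was 897 to 926 TPM in libraries labelled Git2-knockout, against 812 to 832 TPM in wild-type. On the log2 scale its group means differed by 0.14. Gene by gene on the log2(TPM + 1) scale, the median change of the 38 was 0.20, beside 0.14 for all genes tested. In CPM the sums were 1113 to 1184 in libraries labelled Git2-knockout, against 1071 to 1104 in wild-type. In bulk samples a change in the number of dividing cells and a change of a transcript per dividing cell cannot be told apart.

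Among the genes of mitotic entry, both A- and B-type cyclins were represented by a rise, and Cdk1 itself did not pass the test. Ccna2, cyclin A2, was at 64.7, 53.9 and 58.4 CPM in libraries labelled Git2-knockout, against 48.3, 50.01 and 49.7 CPM in wild-type. It rose by 0.26 on the log2 scale (SE 0.06, edgeR, Benjamini-Hochberg adjusted p = 0.00207). Ccnb1, cyclin B1, was at 28.9, 24.6 and 26.8 CPM in libraries labelled Git2-knockout, against 22.4, 19.5 and 21.8 CPM in wild-type. Neither gene's groups overlapped. The rise of Ccnb1 was 0.33 (SE 0.08, edgeR, Benjamini-Hochberg adjusted p = 0.00132). Its close relative Ccnb2 did not follow, with 26.3, 24.5 and 22.9 CPM in libraries labelled Git2-knockout, against 27.6, 26.8 and 25.5 CPM in wild-type (log2 fold change -0.12, 95% interval -0.26 to 0.03). Cdk1, the kinase that both cyclins activate, was at 21.4, 19.96 and 20.6 CPM in libraries labelled Git2-knockout, against 19.4, 18.7 and 18.3 CPM in wild-type. Its groups did not overlap, yet the difference of 0.14 missed the threshold (95% interval -0.01 to 0.28, edgeR adjusted p = 0.101). The phosphatases that remove inhibitory phosphates from Cdk1 did not pass either, with log2 fold changes of -0.01 for Cdc25b (95% interval -0.17 to 0.16) and 0.21 for Cdc25c (-0.07 to 0.48). Cdc25c was the gene with the lowest CPM of the 38, at 4.86 to 5.76 CPM in libraries labelled Git2-knockout and 4.15 to 4.95 CPM in wild-type. Ccna2 lay at 0.11 after removal of both trends, of length and of GC content, and lost its call. Ccnb1 then lay at 0.22 and kept its call (edgeR adjusted p = 0.0099). With the GC trend alone removed Ccna2 lay at 0.13 and Ccnb1 at 0.11, and neither was called. Pseudogene copies of Ccnb1, Ccnb2 and Kif4 are annotated in RefSeq, and how reads were shared with them is not stated in the labels.

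The chromosomal passenger complex, which corrects faulty kinetochore attachments and later directs cytokinesis, was lower in 3 of its 4 subunits. Its scaffold Incenp was at 32.4, 37.1 and 33.5 CPM in libraries labelled Git2-knockout, against 40.9, 41.6 and 40.0 CPM in wild-type, a fall of 0.25 on the log2 scale (SE 0.06, edgeR, Benjamini-Hochberg adjusted p = 0.00201). Birc5, survivin, was at 17.9, 14.3 and 16.5 CPM in libraries labelled Git2-knockout, against 19.5, 19.3 and 21.8 CPM in wild-type (log2 fold change -0.31, SE 0.09, edgeR adjusted p = 0.00619). Cdca8, borealin, was at 24.0, 21.5 and 22.1 CPM in libraries labelled Git2-knockout, against 26.9, 30.1 and 27.0 CPM in wild-type (-0.31, SE 0.07, edgeR adjusted p = 0.0011). In CPM all 3 showed lower values in every library labelled Git2-knockout than in any wild-type library. Of all tested genes 30.6% lay below in this way, and 27.4% fell. On the log2(TPM + 1) scale the 3 were not called, at -0.09 for Incenp, -0.16 for Birc5 and -0.15 for Cdca8, and the TPM of Incenp overlapped between the groups. The catalytic subunit Aurkb was at 19.5, 18.5 and 21.7 CPM in libraries labelled Git2-knockout, against 21.1, 22.6 and 20.9 CPM in wild-type, with overlapping groups and a log2 fold change of -0.11 that did not pass (95% interval -0.27 to 0.05). Plk1, the Polo-like kinase of centrosome maturation and many later steps, was at 24.3, 24.6 and 24.7 CPM in libraries labelled Git2-knockout, against 30.2, 30.9 and 28.6 CPM in wild-type. It stood at 82.1% of wild-type (log2 fold change -0.28, SE 0.06, edgeR, Benjamini-Hochberg adjusted p = 7.60e-04). The other kinase of the centrosomes, Aurka, and its activator Tpx2 lay at -0.06 (95% interval -0.22 to 0.10) and 0.01 (-0.13 to 0.15), with overlapping groups. After removal of both trends, of length and of GC content, Plk1 lay at -0.06, Birc5 at -0.08 and Cdca8 at -0.13, none of them called, and Incenp at -0.16 kept its call (edgeR adjusted p = 0.0183). With the GC trend alone removed it was the other way, since Birc5 (-0.37) and Cdca8 (-0.28) kept their calls and Incenp (-0.10, edgeR adjusted p = 0.182) and Plk1 (-0.11) lost theirs.

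In the spindle checkpoint, partners moved in opposite directions. Bub3, which carries Bub1 and BubR1 to kinetochores, was at 36.6, 37.6 and 35.4 CPM in libraries labelled Git2-knockout, against 49.9, 47.0 and 49.4 CPM in wild-type. This was the strongest fall of the 38 genes, to 75.0% of wild-type (log2 fold change -0.42, SE 0.05, edgeR, Benjamini-Hochberg adjusted p = 6.67e-06), and it was still -0.38 after removal of both trends. The kinase Bub1 was at 16.7, 18.1 and 14.4 CPM in libraries labelled Git2-knockout, against 11.7, 13.0 and 12.8 CPM in wild-type. It rose by 0.39 (SE 0.09, edgeR, Benjamini-Hochberg adjusted p = 0.00197), without overlap, and lay at -0.06 with both trends removed. Bub1b, which encodes BubR1, was at 27.4, 33.0 and 31.9 CPM in libraries labelled Git2-knockout, against 30.7, 31.5 and 33.4 CPM in wild-type (log2 fold change -0.05, 95% interval -0.20 to 0.10). Mad2l1, which encodes the checkpoint protein Mad2, was at 20.4, 19.4 and 20.5 CPM in libraries labelled Git2-knockout, against 18.9, 20.5 and 17.5 CPM in wild-type (0.08, 95% interval -0.08 to 0.24). The groups of both genes overlapped. After removal of both trends Bub1b lay at -0.15 and was called (edgeR adjusted p = 0.0433). Mad2l1 changed direction with the setting. It was called upward with the length trend alone removed (0.21, edgeR adjusted p = 0.0202) and downward with the GC trend alone removed (-0.29, edgeR adjusted p = 0.0046). With both removed it lay at -0.08 and was not called.

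At the kinetochore, the large coiled-coil proteins Cenpe and Cenpf rose, and Cenpa, Ndc80 and Nuf2 did not pass the test. Cenpf, which binds microtubules and dynein regulators at the outer kinetochore, was at 24.4, 30.97 and 29.1 CPM in libraries labelled Git2-knockout, against 19.5, 21.99 and 19.6 CPM in wild-type. It rose by 0.47 on the log2 scale (SE 0.09, edgeR, Benjamini-Hochberg adjusted p = 2.52e-04). Cenpe, a kinesin that moves chromosomes to the spindle equator, was at 24.3, 34.4 and 35.01 CPM in libraries labelled Git2-knockout, against 25.4, 23.5 and 21.4 CPM in wild-type. Replicate 1 labelled Git2-knockout lay inside the wild-type range and the other two above it. The rise of Cenpe was 0.42 (SE 0.14, edgeR, Benjamini-Hochberg adjusted p = 0.0373), and its adjusted p was over the threshold when replicate 2 or 3 labelled Git2-knockout (0.100 and 0.0779, edgeR) or wild-type replicate 2 or 3 (0.101 and 0.0996) was left out, at log2 fold changes of 0.31 to 0.42. After removal of both trends, Cenpf lay at -0.12 and Cenpe at -0.09. Cenpa, the histone that marks centromeres, was at 16.9, 14.9 and 13.6 CPM in libraries labelled Git2-knockout, against 17.3, 17.3 and 16.8 CPM in wild-type (log2 fold change -0.18, edgeR adjusted p = 0.0788). The microtubule-coupling subunits Ndc80 and Nuf2 lay at 0.10 (95% interval -0.13 to 0.32) and 0.02 (-0.16 to 0.20), each with overlapping groups.

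Among the 6 kinesins with Kif symbols, which leave out Cenpe, Kif11 was the one that rose. It encodes the motor that pushes the spindle poles apart and was at 42.8, 39.52 and 43.9 CPM in libraries labelled Git2-knockout, against 32.5, 31.8 and 29.4 CPM in wild-type, with a wide gap between the groups. The log2 fold change was 0.43 (SE 0.06, edgeR, Benjamini-Hochberg adjusted p = 1.78e-05), and 0.002 after removal of both trends. The other 5 Kif genes did not pass. Kif20a, which carries the passenger complex to the central spindle, was at 26.4, 27.8 and 31.7 CPM in libraries labelled Git2-knockout, against 25.6, 26.1 and 26.2 CPM in wild-type, close together but without overlap (0.14, edgeR adjusted p = 0.0914). Kif4, a chromosome-binding motor, lay at 0.11 (95% interval -0.04 to 0.26), the centralspindlin motor Kif23 at 0.05 (-0.08 to 0.19), the microtubule depolymerase Kif2c at 0.02 (-0.15 to 0.18), and Kif18b, which acts on astral microtubules, at -0.03 (-0.23 to 0.17). The span of Kif20a overlaps those of Brd8 and Cdc23 in RefSeq, and without a stated strand setting reads from overlapping genes cannot be told apart, as is also so for Ccna2 with Exosc9, Aurka with Cstf1, Cdc20 with Elovl1, Anln with 9530077C05Rik, Prc1 with Rccd1 and Foxm1 with Tex52.

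**Figure D3:**
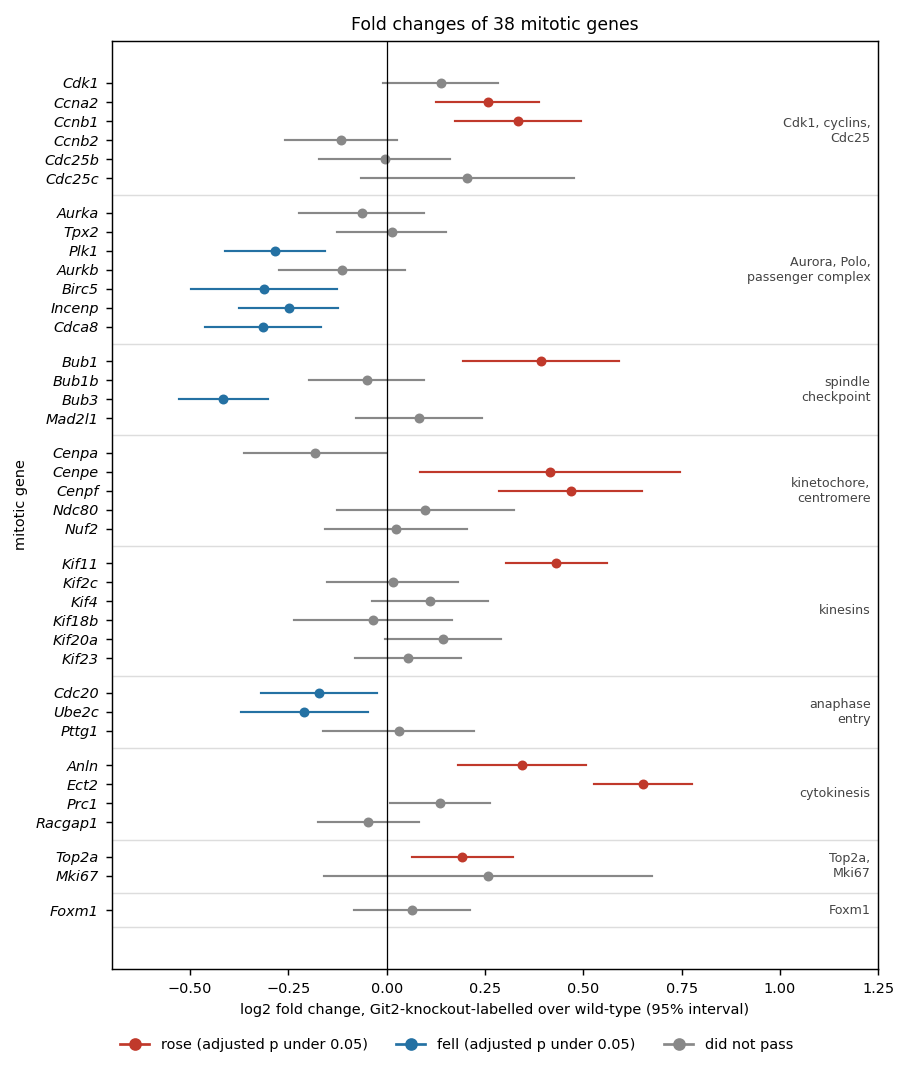
Log2 fold change (libraries labelled Git2-knockout over wild-type) of each of the 38 mitotic genes with its 95% interval, by role, in red where a gene rose, blue where it fell and grey where it did not pass the test. The red points run up to Ect2 at 0.65 and the blue ones down to Bub3 at -0.42, and the kinase and passenger complex group holds 4 blue points and 0 red ones.

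Of the genes of anaphase entry, the activator and the ubiquitin-conjugating enzyme of the anaphase-promoting complex fell slightly. Cdc20 was at 32.0, 27.2 and 32.7 CPM in libraries labelled Git2-knockout, against 32.6, 35.3 and 35.6 CPM in wild-type, with replicate 3 of the first group just inside the wild-type range (log2 fold change -0.17, SE 0.07, edgeR, Benjamini-Hochberg adjusted p = 0.0453). Ube2c was at 32.2, 24.9 and 27.8 CPM in libraries labelled Git2-knockout, against 33.2, 32.6 and 32.3 CPM in wild-type (-0.21, SE 0.08, edgeR adjusted p = 0.0278). Both calls, though not the direction, were lost when some single libraries were left out. The adjusted p of Cdc20 was 0.20 (edgeR) without replicate 2 labelled Git2-knockout, at a log2 fold change of -0.10. Without wild-type replicate 2 or 3 it was 0.127 and 0.154 (edgeR), at -0.16 and -0.15. The adjusted p of Ube2c lay at 0.0642 to 0.131 (edgeR) in 5 of the 6 fits that left out 1 library, the exception being the fit without replicate 1 labelled Git2-knockout. In those 5 fits the log2 fold change was -0.14 without replicate 2 labelled Git2-knockout and -0.22 to -0.20 in the others. Ube2c rose by 0.21 after removal of both trends, a reversal of its direction. Pttg1, securin, which holds separase inactive until anaphase, was at 15.95, 13.3 and 15.2 CPM in libraries labelled Git2-knockout, against 13.2, 15.2 and 15.1 CPM in wild-type (0.03, 95% interval -0.16 to 0.22). It was called upward with the length trend alone removed (0.35, edgeR adjusted p = 0.00106) and with both trends removed (0.29, edgeR adjusted p = 0.00627). On log2(TPM + 1) it was also called upward (0.21), and with the GC trend alone removed it was not called (-0.06).

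Cytokinesis held the strongest change of the 38 genes. Ect2, the exchange factor that activates RhoA at the site of the cleavage furrow, was at 44.5, 39.6 and 42.1 CPM in libraries labelled Git2-knockout, against 27.1, 26.7 and 26.4 CPM in wild-type. The groups lay far apart. Its level was 157% of wild-type (log2 fold change 0.65, SE 0.06, edgeR, Benjamini-Hochberg adjusted p = 1.50e-07), and the rise was 0.26 after removal of both trends (edgeR adjusted p = 3.73e-04). Anln, anillin, the scaffold of the contractile ring, was at 19.7, 21.8 and 23.4 CPM in libraries labelled Git2-knockout, against 17.0, 17.3 and 16.9 CPM in wild-type, again without overlap. Its rise of 0.34 (SE 0.08, edgeR, Benjamini-Hochberg adjusted p = 0.00121) stood at -0.04 with both trends removed. Racgap1, the centralspindlin subunit that recruits Ect2, was at 39.0, 39.6 and 40.5 CPM in libraries labelled Git2-knockout, against 44.6, 38.9 and 39.6 CPM in wild-type (-0.05, 95% interval -0.17 to 0.08). Prc1, which bundles microtubules of the central spindle, was at 26.0, 26.8 and 26.4 CPM in libraries labelled Git2-knockout, against 24.6, 23.8 and 23.8 CPM in wild-type (0.14, edgeR adjusted p = 0.0654).

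Of the widely used proliferation genes, Top2a rose and Mki67 did not pass the test, and both depended on single libraries. Mki67, whose protein coats mitotic chromosomes, was at 126, 178 and 172 CPM in libraries labelled Git2-knockout, against 143, 134 and 122 CPM in wild-type. Replicate 1 labelled Git2-knockout fell within the wild-type range, and the difference of 0.26 did not pass (SE 0.16, 95% interval -0.16 to 0.68, edgeR adjusted p = 0.234). Without that replicate it was 0.37 (edgeR adjusted p = 6.94e-05). Top2a, the topoisomerase that untangles sister chromatids, was at 94.1, 112 and 109 CPM in libraries labelled Git2-knockout, against 94.9, 88.2 and 92.7 CPM in wild-type, with the same replicate inside the wild-type range. It rose by 0.19 (SE 0.06, edgeR, Benjamini-Hochberg adjusted p = 0.0129). The adjusted p was 0.0709 to 0.0782 (edgeR) when replicate 2 or 3 labelled Git2-knockout or wild-type replicate 2 was left out, at log2 fold changes of 0.13 to 0.16. After removal of both trends Top2a fell by 0.21 on the log2 scale (edgeR adjusted p = 0.00127), the opposite direction. Foxm1, the transcription factor of the G2 and mitosis genes, was at 21.3, 20.5 and 21.9 CPM in libraries labelled Git2-knockout, against 19.3, 21.5 and 20.3 CPM in wild-type (0.06, 95% interval -0.08 to 0.21). It was called upward with the GC trend alone removed (0.21, edgeR adjusted p = 0.0211) and on log2(TPM + 1) (0.21). With both trends removed it lay at 0.05 and was not called.

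Transcript length and base composition moved with the direction of change among the mitotic genes. The 9 genes that rose had a median transcript length of 4285 bases and a median GC content of 42.9%. In the 7 that fell these were 1735 bases and 54.2%, and in the 22 that did not pass 2852 bases and 48.7%. Across the 38 genes Pearson's r between log2 fold change and log2 length was 0.66 (Spearman's rho 0.70), and with GC content it was -0.71 (rho -0.75). The values over all tested genes were 0.39 for length (rho 0.49, 12629 genes) and -0.39 for GC content (rho -0.50, 13373 genes). These are correlations across genes of the same 6 libraries, and genes are not independent replicates. Among the genes that fell, Bub3 (47.5%) and Birc5 (48.3%) had the lowest GC content, near the 47.6% median of the 38 genes. The part of length and base composition in the changes, beyond the values after removal of both trends, was not tested.

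**Figure D4:**
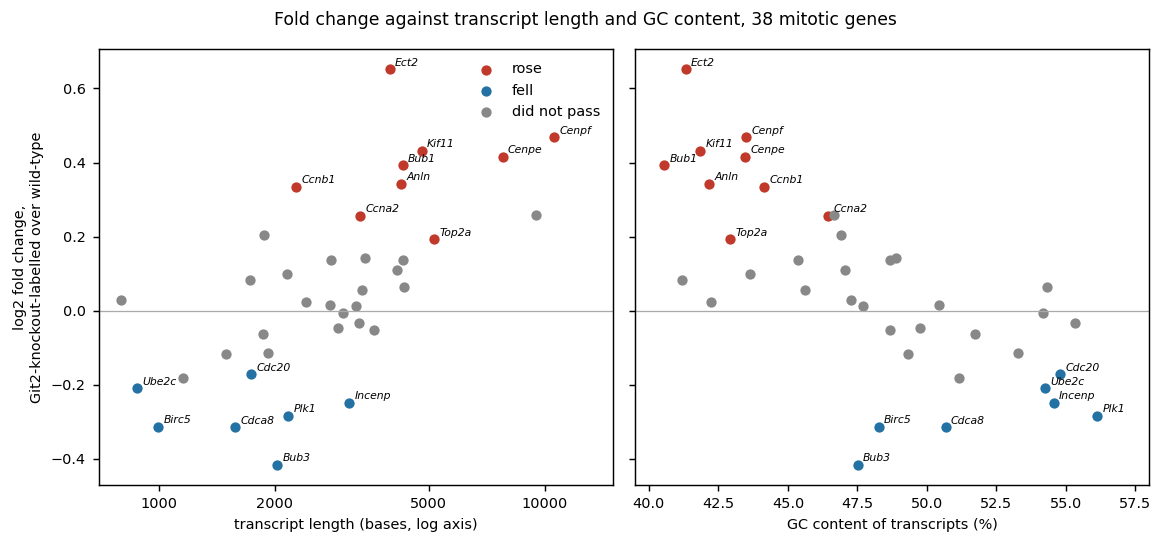
Log2 fold change (libraries labelled Git2-knockout over wild-type) of the 38 mitotic genes against transcript length in bases on a log axis (left) and GC content in percent (right), in red where a gene rose, blue where it fell and grey where it did not pass. The red points lie at 40.6% to 46.4% GC and the blue ones at 47.5% to 56.1%.

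Other genes of cell division were counted in lists by complex, beside the 29.6% of all tested genes that rose and the 27.4% that fell (21.5% each after removal of both trends). Of 161 further cell cycle genes in 9 lists, all tested, 48 rose and 49 fell, at a median log2 fold change of -0.005, and the 60.2% called was near the 57% of all genes tested. Cohesin and its regulators, which hold sister chromatids together, had 9 of 12 genes rising and 0 falling, with a median of 0.33, and Stag2 (0.57), Rad21 (0.43) and Wapl (0.38) had the smallest p among them. Of 8 condensin subunits, which fold mitotic chromosomes, 5 rose, among them Smc2 (0.57), Smc4 (0.46) and Ncapg2 (0.48), and Ncaph2 fell (-0.21), with a median of 0.36. After removal of both trends, 1 gene of the cohesin list rose, Rad21 (0.27), and 6 fell, and of the condensin subunits 0 rose and 2 fell.

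There were 12 rises and 3 falls among 27 kinesin, spindle and centrosome genes outside the 38, at a median of 0.18. The centrosome scaffold Cep192 rose by 0.88 (SE 0.08, edgeR, Benjamini-Hochberg adjusted p = 1.71e-06) and gamma-tubulin, Tubg1, fell (-0.60). Cep192 was at 40.9, 51.9 and 50.5 CPM in libraries labelled Git2-knockout, against 27.6, 25.6 and 24.8 CPM in wild-type, and was still at 0.39 with both trends removed. Nusap1 (0.34) and Aspm (0.62), microtubule-binding proteins of the spindle, also rose, and Kifc1 (-0.24) and Stil (-0.34) fell. Among 33 other kinetochore and centromere genes there were 8 rises and 4 falls, at a median of 0.11, and the 36.4% called was below the 57% of all genes. Knl1 (0.63), the docking platform of Bub1 and Bub3, and Cenpc1 (0.35) rose, and Pmf1 (-0.61), Mad1l1 (-0.47), the partner of Mad2, and Spc24 (-0.23) fell. With both trends removed 1 of the spindle genes rose and 7 fell, and 2 of the kinetochore genes rose and 3 fell. Of 16 anaphase-promoting complex genes 7 fell and 3 rose, the median being -0.06 (5 fell and 2 rose after removal of both trends), led by Anapc13 (-0.83), Anapc11 (-0.34) and Fzr1 (-0.31) among the falls and by Cdc27 (0.56), Anapc1 (0.15) and Anapc4 (0.15) among the rises.

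Of 29 DNA replication genes 20 fell and 0 rose, with a median of -0.27, where 27.4% of all tested genes fell and 29.6% rose. The helicase subunits Mcm5 (-0.68), Mcm3 (-0.64) and Mcm2 (-0.63) led them, and Mcm5 was at 32.4, 31.03 and 33.4 CPM in libraries labelled Git2-knockout, against 52.0, 51.6 and 51.8 CPM in wild-type. After removal of both trends 21 fell and 1 rose, where 21.5% of all genes went each way. The summed level of the list was 905 to 930 CPM in libraries labelled Git2-knockout, against 1126 to 1135 CPM in wild-type.

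Regulators upstream of the mitotic genes moved both ways. Among 19 MuvB, Rb and E2F genes there were 8 rises and 6 falls, at a median of -0.005. Mybl2, which encodes the B-Myb partner of MuvB, was at 11.6, 12.3 and 11.6 CPM in libraries labelled Git2-knockout, against 15.5, 16.4 and 18.4 CPM in wild-type, a fall of 0.50 on the log2 scale (SE 0.09, edgeR, Benjamini-Hochberg adjusted p = 1.15e-04). E2f1 (-0.55) and E2f4 (-0.33) fell, while Lin54 (0.52) and the pocket proteins Rb1 (0.52) and Rbl1 (0.56) rose. Of 8 Cdk inhibitors and inhibitory kinases 4 fell and 2 rose, with a median of -0.23, and after removal of both trends 1 fell and 3 rose, with a median of 0.05. Cdkn1c (-0.57), Cdkn1a (-0.20) and the Cdk1-inhibiting kinase Pkmyt1 (-0.45) fell, and Cdkn1b (0.33) and Wee1 (0.22) rose. Among 9 G1 cyclins and kinases 4 fell, including Ccnd1 (-0.42), Cdk4 (-0.21) and Cdc25a (-0.18), and Ccne2 rose (0.32), with a median of -0.005. Without the trends of length and GC content 5 of the MuvB, Rb and E2F genes rose and 6 fell, and 3 of the G1 genes rose and 4 fell.

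**Figure D5:**
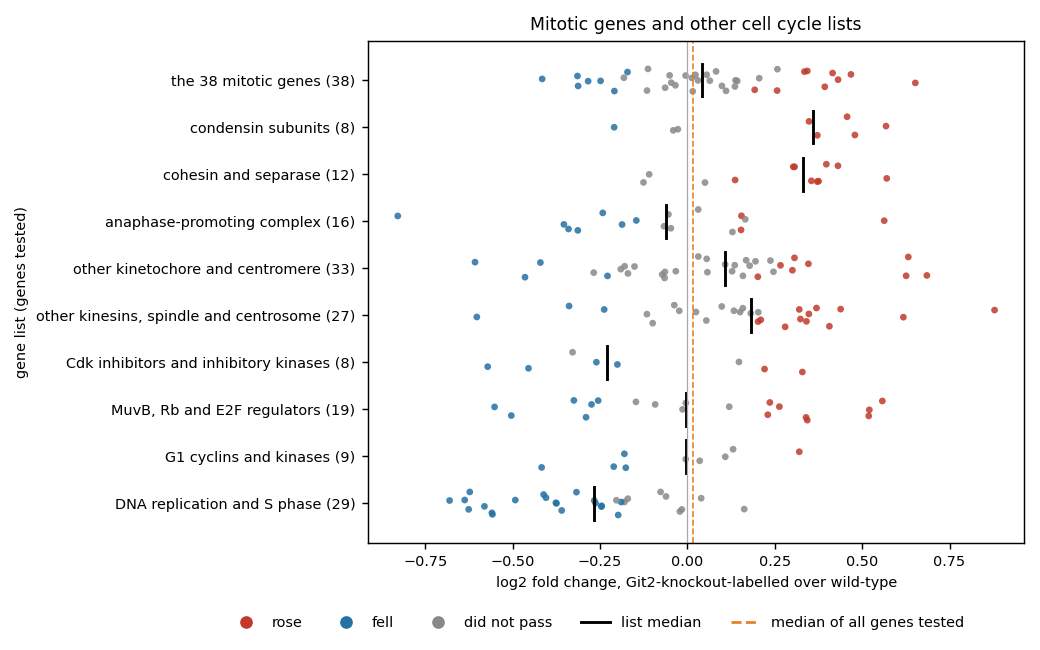
Log2 fold change (libraries labelled Git2-knockout over wild-type) of the 38 mitotic genes and of 9 other cell cycle lists, with a point per tested gene, red where it rose, blue where it fell and grey where it did not pass, a black bar at each list's median and a dashed line at the median of all genes tested. The replication list lies furthest to the left, at a median of -0.27, and the cohesin and condensin lists lie to the right, at 0.33 and 0.36.

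Markers of other cell types moved with the groups in the same libraries. Their counts stand beside the 29.6% of all tested genes that rose and the 27.4% that fell. Of 11 fibroblast genes 9 were tested and 9 rose, with Sparc (1.63) and Vim (0.68) the most abundant, and their sum was 102 to 113 TPM in libraries labelled Git2-knockout, against 34.6 to 37.2 TPM in wild-type. Of 8 endothelial genes 7 rose, with Plvap (1.10) and Pecam1 (1.11) the most abundant, at sums of 36.9 to 40.8 TPM in libraries labelled Git2-knockout, against 15.8 to 17.2 TPM in wild-type. Of 7 erythroid genes 5 were tested and 4 rose, including Hbb-bs (1.90) and Hba-a2 (1.89), at sums of 302 to 329 TPM in libraries labelled Git2-knockout, against 83.2 to 87.4 TPM in wild-type. Of 8 B cell genes 7 were tested and 7 fell, including Cd79a (-1.59) and Cd79b (-1.35), at sums of 9.17 to 10.7 TPM in libraries labelled Git2-knockout, against 22.2 to 22.8 TPM in wild-type. In the macrophage list 2 of 8 genes rose and 1 fell, with Csf1r at -1.12 and Cd68 at 0.14, and sums of 133 to 136 TPM in libraries labelled Git2-knockout, against 163 to 166 TPM in wild-type. In CPM the macrophage sums were 133 to 134 in libraries labelled Git2-knockout, against 232 to 235 in wild-type. Of the 7 T cell genes 4 were tested, 1 rose and Lck fell (-0.47), at sums of 5.50 to 6.96 TPM in libraries labelled Git2-knockout, against 5.0 to 5.76 TPM in wild-type, and Cd4 lay at 0.21. Of the 7 neutrophil genes 2 were tested and neither passed, Csf3r at -0.08 and Camp at -0.36, with sums of 4.07 to 5.99 TPM in libraries labelled Git2-knockout, against 5.49 to 6.57 TPM in wild-type. Within the epithelium 9 of 16 crypt stem cell genes fell and 2 rose, with Olfm4 at -0.05 and Slc12a2 at 0.21, and 9 of 12 enterocyte genes fell and 2 rose, with Apoa4 at -0.59 and Apoa1 at -0.79. The summed stem cell level was 1455 to 1517 TPM in libraries labelled Git2-knockout, against 1378 to 1430 TPM in wild-type, and in CPM the order was the other way, with 2156 to 2187 CPM in libraries labelled Git2-knockout, against 2216 to 2266 CPM in wild-type. The summed enterocyte level was 31010 to 32076 TPM in libraries labelled Git2-knockout, against 42655 to 43271 TPM in wild-type. Of the 8 general epithelial genes 6 fell and 0 rose, Krt8 at -0.30 and Epcam at 0.01. With the trends of length and GC content removed, 12 of the stem cell genes fell and 1 rose. Of the general epithelial genes 2 then fell and 3 rose, where 21.5% of all genes went each way. The part of these cell types in the mitotic results was not tested.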

How the data were processed

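Poly(A) RNA, captured on oligo(dT) per the labels' protocols, was sequenced in 6 libraries. HISAT, Bowtie2, RSEM and the GRCm39 build are named in the submitters' processing notes; strand setting, annotation and versions are not stated there. Per the file headers the authors deposited read counts per gene, which are estimated counts, since 58.9% to 69.2% of values per library were not whole. FPKM and TPM were deposited by the authors beside them, per the file headers. The authors' group means were not used.

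Estimated counts, rounded to whole numbers, entered edgeR 4.0.16 under R 4.3.3: filterByExpr (13558 of 18159 genes), TMM scaling, and the robust two-sided quasi-likelihood test on all genes, without covariates, with Benjamini-Hochberg adjustment and a threshold of 0.05. Fold changes are libraries labelled Git2-knockout over wild-type. The SE is the log2 fold change divided by the root of F, and 95% intervals use the fit's degrees of freedom. Levels are TMM-scaled CPM (per 1000000 reads) or deposited TPM. The precision is limited by 77.6 to 3048 estimated reads per mitotic gene and library.

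Alternatives were scaling by library totals, upper quartiles or RLE, DESeq2 1.42.0, limma-voom and limma-trend on log2(TPM + 1) (limma 3.58.1), leaving the filter out, a minimum of 5 CPM in 3 libraries, a non-robust fit, the replicate number as a block, each library left out, and removal of a transcript length trend by loess (span 0.5). Removal of a GC trend, alone and with length, was chosen after seeing the data. Length was that implied by estimated counts and FPKM of at least 0.5 (93.1% of tested genes), and GC content came from GENCODE transcripts of GRCm38 (98.6%). Replicate numbers are in the titles only. The steps were tested on simulated data. Every replicate counted as 1 sample, as all pairs differed beyond counting noise. Members, lists and tests were chosen with earlier results of these data known. Named outside the 38 genes are, per cell cycle list, up to 3 called genes with the smallest p in each direction, per cell type list the 2 with the highest TPM, and Git2; 1 gene that the rule names is not reported here. Promoter windows are from RefSeq, GRCm38.p6, a build other than that of the counts, and served only for sequence, and gene spans from the same build only for overlaps.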

Additional observations from a re-analysis of the deposited data

How the results depend on the processing

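Under the other scalings, DESeq2, limma-voom, both filters, the non-robust fit and the fits that left out 1 library, the count of mitotic genes that rose ran from 7 to 12 and that of falls from 5 to 9 (7 to 11 and 5 to 9 among the fits that left out 1 library), and 12 to 16 of the 16 calls remained in the same direction. Of 721 values of single mitotic genes under the alternatives, 633 stayed on the same side of the threshold. Genes called under neither of the settings compared were given no direction. In the fits that left out 1 library, 3430 to 4082 of all genes rose and 3150 to 4261 fell, and 38 to 44 of the other cell cycle genes rose and 43 to 54 fell. On log2(TPM + 1), 19 mitotic genes rose and 1 fell, 1890 of all genes fell, and 28 of the 161 other cell cycle genes fell. With the length trend removed 4 mitotic genes fell, and Cdc25c (0.315), Mad2l1 (0.211) and Pttg1 (0.351), not called before, were called upward. With the GC trend removed 2 mitotic and 19 other cell cycle genes rose. With both trends removed 4 mitotic genes rose and 4 fell, and 18 other cell cycle genes rose. Among these mitotic genes Pttg1 (0.288, upward) and Bub1b (-0.153, downward) were not called before. With the GC trend removed, Bub1 lay at -0.0054 and Top2a at -0.092, against the direction first called. Mad2l1 (-0.286) and Nuf2 (-0.294), not called before, were then called downward, and Foxm1 (0.207) upward. On log2(TPM + 1) Mad2l1 was called upward (0.231), and with both trends removed it lay at -0.079 and was not called. With both trends removed, and again against the direction first called, Bub1 lay at -0.058, Cenpe at -0.087, Cenpf at -0.116, Anln at -0.038, Top2a at -0.215, Cdc20 at 0.087 and Ube2c at 0.205, and Ube2c lay at 0.085 with the length trend alone removed. The cause of these changes was not tested. The deviations of same-numbered libraries correlated at 0.041, -0.001 and 0.050, and those of other-numbered libraries at -0.068 to 0.033. Correlations this few and small cannot tell whether the replicate numbers pair the libraries. With the replicate number as a block 8 mitotic genes rose and 6 fell, and 3863 of all genes rose and 3578 fell. Genes near the threshold were limited by the 3 libraries per group, with a median coefficient of variation of 7.63% among libraries labelled Git2-knockout and 4.06% among wild-type.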

Other observations

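Ratios of partner genes within a library, in TPM, were chosen after their values were seen and are given as a description without a test. Ccnb1 stood at 0.660 to 0.768 of the level of Ccnb2 in libraries labelled Git2-knockout, against 0.478 to 0.561 in wild-type. Ect2 stood at 0.736 to 0.835 of the level of its recruiter Racgap1 in libraries labelled Git2-knockout, against 0.443 to 0.502 in wild-type, and Bub1 at 0.192 to 0.227 of the level of Bub3 in libraries labelled Git2-knockout, against 0.110 to 0.131 in wild-type. Plk1 stood at 1.01 to 1.19 of the level of Aurkb in libraries labelled Git2-knockout, against 1.21 to 1.28 in wild-type. These 4 ratios did not overlap between the groups. The share of all gene pairs that do so was not counted, and in CPM 62.9% of all single tested genes did not overlap. The trends of length and GC content were not removed from the ratios. The ratios of Aurka to its activator Tpx2 (0.904 to 1.06 in libraries labelled Git2-knockout, 0.972 to 1.11 in wild-type) and of Aurkb to Incenp (0.806 to 1.05 in libraries labelled Git2-knockout, 0.833 to 0.886 in wild-type) overlapped. Ndc80 and Nuf2, subunits of the same complex, had ratios of 0.985 to 1.30 in libraries labelled Git2-knockout and 1.03 to 1.05 in wild-type.

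Replicate 1 labelled Git2-knockout was the lowest of its group in 14 of the 38 mitotic genes, the highest in 12 and between the others in 12. Without it all 16 original calls remained in the same direction, and Ccnb2, Cenpa, Kif20a and Mki67 were called in addition.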
